A study of Mus musculus with 8 samples.

Results

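Expression of 10 mouse genes of gastrulation and early mesoderm (T, Evx1, Mixl1, Mesp1, Tbx6, Gsc, Fgf8, Kdr, Msx1 and Msx2) was followed through stem cells and blastoids. They were taken by symbol from a deposited table of 24888 genes, and all 10 had a row. A blastoid is an aggregate of stem cells that models the blastocyst, a stage before gastrulation begins. The levels of these genes were read as those of a programme outside the 3 blastocyst lineages.

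In the mouse embryo, epiblast cells leave the epithelium through the primitive streak and become mesoderm and definitive endoderm. The streak forms at the posterior side under Wnt, Nodal and BMP signals, and FGF signals are needed for its cells to move away. Posterior streak cells give extraembryonic and lateral mesoderm with the first blood vessels, whereas the anterior streak gives the organizer, axial mesoderm and definitive endoderm.

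RNA was sequenced from 8 libraries, 1 for each of 8 groups, all derived from E14 mouse embryonic stem cells (ESC). The day 5 blastoids, picked by hand, were labelled Type I and Type III, and the labels trace both to expanded potential stem cells (EPSC) given T0901317 (T09), which activates the liver X receptors. The labels do not define the 2 types, and the sample titles carry Gd for Type I and Bad for Type III. Day 2 blastoids came from EPSC transfected with an siRNA against Nr1h2 (siNr1h2), which encodes the liver X receptor beta, or with a non-targeting siRNA (siNT), and were harvested 48 hours after transfection. EPSC are ESC kept for 5 passages in a medium for wider developmental potential, and both EPSC and ESC were sequenced untreated and after 3 days of T09. The unit given for the T09 dose does not make its concentration clear. Both stem cell media held LIF, the Wnt pathway activator CHIR99021 and the MEK inhibitor PD0325901. The EPSC medium also held XAV939, a tankyrase inhibitor that lowers Wnt pathway output, SB203580, A-419259 and JNK Inhibitor VIII, with serum replacement in place of serum. Blastoid medium held CHIR99021, FGF4 and heparin throughout, and from day 1 also BMP4 and A83-01, an inhibitor of the activin, Nodal and TGF-beta type I receptors. Blastoids and stem cells therefore differed in medium, aggregation and time at once, effects that cannot be told apart here. By the labels, day 5 blastoids came from T09-treated EPSC and day 2 blastoids from transfected EPSC. Day therefore cannot be told apart from these treatments either.

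Total counts ran from 24666260 to 40781415 per library, so that a gene with 0 counts could still stand at up to 0.0741 to 0.114 CPM (counts per 1000000, with library totals scaled by edgeR's TMM factors), taken as 3 counts. With 1 library per group, the spread between cultures is unknown. Reads were not tagged by molecule, so every interval and floor below covers counting error only. The siRNA target Nr1h2 stood at 37.7 CPM in siNr1h2 and 53.9 CPM in siNT blastoids, and between 52.6 and 92 CPM elsewhere. Marker lists were read beside the labels. The 5 pluripotency markers summed to between 3503 and 5087 CPM in the 4 stem cell libraries. The 10 primitive endoderm markers summed to 21092 CPM in Type I and 12133 CPM in Type III blastoids, of which Col4a1 alone held 15510 and 7700 CPM. The 10 trophectoderm markers summed to 1394 and 1566 CPM in those day 5 libraries, and no marker of these 3 lists was at 0 in either. Fibroblast markers summed to at most 23.1 CPM in any library. In these bulk samples, fewer cells of a type and less RNA per cell cannot be told apart.

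The 10 genes together came to 95.7 CPM in Type I and 113 CPM in Type III day 5 blastoids, and to 70.5 CPM in siNr1h2 and 71.3 CPM in siNT day 2 blastoids. The sums were 4.05 CPM in T09-treated EPSC, 4.45 CPM in EPSC, 20.1 CPM in T09-treated ESC and 18.0 CPM in ESC. All 4 blastoid sums lay above all 4 stem cell sums. The blastoid sums rest mainly on T, Evx1, Msx1 and Msx2, and Gsc ran the other way. EPSC lay below the ESC they were made from, with and without T09. Per kilobase of exon, the highest levels of the set were those of T in Type III blastoids (20.1 CPM per kb), Msx2 and T in Type I blastoids (10.8 and 10.7 CPM per kb), and Evx1 in siNr1h2 and siNT blastoids (9.72 and 9.07 CPM per kb).

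**Figure D1:**
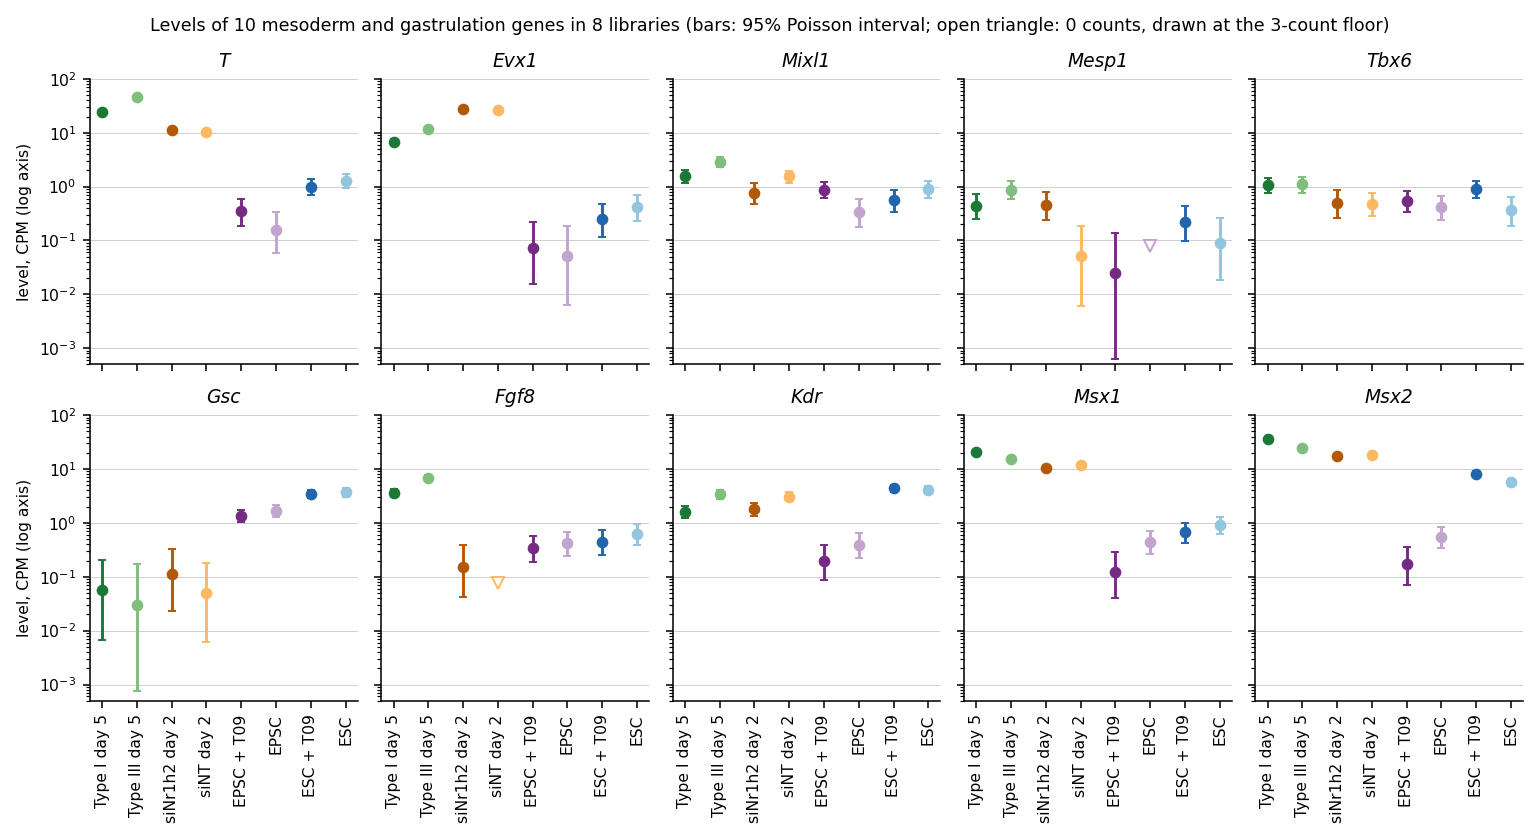
Level in CPM on a log axis of each of the 10 genes in the 8 libraries, blastoids on the left and stem cells on the right. Points are single libraries with 95% exact Poisson intervals, and an open triangle marks 0 counts. T, Evx1, Msx1 and Msx2 stood higher in every blastoid library than in every stem cell library, while Gsc stood highest in ESC.

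T (brachyury), the T-box factor that marks the primitive streak and nascent mesoderm and a direct Wnt target, stood at 24.7 CPM in Type I and 46.5 CPM in Type III blastoids. Day 2 levels were 11.1 CPM in siNr1h2 and 10.1 CPM in siNT. Stem cells held 0.346 CPM in T09-treated EPSC, 0.157 CPM in EPSC, 1.00 CPM in T09-treated ESC and 1.30 CPM in ESC. Blastoids and stem cells did not overlap, and the order ran from Type III through Type I and day 2 to ESC and then EPSC. Counting intervals did not separate siNr1h2 from siNT, or a stem cell type from its T09-treated partner.

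Evx1, a homeobox factor of the posterior streak, had another order. It stood at 6.74 CPM in Type I and 11.7 CPM in Type III blastoids, against 28.0 CPM in siNr1h2 and 26.1 CPM in siNT day 2 blastoids. The 4 stem cell libraries held 0.0741 CPM in T09-treated EPSC, 0.0524 CPM in EPSC, 0.251 CPM in T09-treated ESC and 0.422 CPM in ESC, from between 2 and 14 counts. So Evx1 was highest in the day 2 libraries and T in the day 5 libraries, which differ in more than day. Evx1 overlaps the antisense gene Evx1os, which had between 0 and 7 counts in stem cells and between 169 and 412 in blastoids. The library kit keeps strand, but the strand setting of the counting is not stated, so reads of the pair may be mixed.

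Mixl1, a homeobox factor of streak and mesendoderm, stayed low. It stood at 1.56 CPM in Type I and 2.86 CPM in Type III blastoids, and at 0.763 CPM in siNr1h2 and 1.55 CPM in siNT blastoids. In stem cells it stood at 0.865 CPM in T09-treated EPSC, 0.340 CPM in EPSC, 0.558 CPM in T09-treated ESC and 0.904 CPM in ESC. Blastoids and stem cells overlapped. Type III lay apart at the top of the order, Type I and siNT came next and were not separated, and no neighbours were separated among the other 5 libraries.

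Mesp1 and Tbx6 are genes of early mesoderm. Mesp1 is a bHLH factor of the earliest cardiac and cranial mesoderm, and Tbx6 a T-box factor that directs paraxial mesoderm. Mesp1 had 16 counts in Type I, 29 in Type III, 12 in siNr1h2 and 2 in siNT blastoids. It had 1 count in T09-treated EPSC, 0 in EPSC, 8 in T09-treated ESC and 3 in ESC. Its highest level, in Type III blastoids, was 0.882 CPM, and no neighbours in its order were separated by their counting intervals. Tbx6 stood at 1.06 CPM in Type I, 1.10 CPM in Type III, 0.496 CPM in siNr1h2 and 0.483 CPM in siNT blastoids. The stem cells held 0.544 CPM in T09-treated EPSC, 0.419 CPM in EPSC, 0.893 CPM in T09-treated ESC and 0.362 CPM in ESC. Both genes thus stayed at or below 1.10 CPM in every library, and no neighbours in the Tbx6 order were separated.

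Gsc, a homeobox factor of the anterior streak and organizer, ran the other way. It had 2 counts in Type I, 1 in Type III, 3 in siNr1h2 and 2 in siNT blastoids. The stem cells held 1.36 CPM in T09-treated EPSC, 1.68 CPM in EPSC, 3.46 CPM in T09-treated ESC and 3.68 CPM in ESC. All stem cell libraries lay above all blastoid libraries, and ESC lay above EPSC. T09 treatment did not separate the libraries of either state.

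The promoters of T, Evx1, Mesp1 and Gsc are shown because these genes carry the contrasts above: T and Evx1 were highest on different days, Mesp1 stayed low and Gsc was low in blastoids. Each runs 5′ to 3′ from 250 bases before to 50 bases after the start given by RefSeq for GRCm38.p6. The counts rest on mm9, so these coordinates belong to RefSeq only. Capitals mark matches to the TCF/LEF word CTTTG followed by AA, AT, TA or TT, or to the T-box word AGGTGTGA, read on either strand.
T, chr17:8434173-8434472, plus strand: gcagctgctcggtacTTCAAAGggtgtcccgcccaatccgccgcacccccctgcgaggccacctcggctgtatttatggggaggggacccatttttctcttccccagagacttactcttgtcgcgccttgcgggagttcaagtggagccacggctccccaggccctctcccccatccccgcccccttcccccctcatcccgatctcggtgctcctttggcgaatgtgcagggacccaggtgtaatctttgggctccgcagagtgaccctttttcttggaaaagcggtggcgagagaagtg
Evx1, chr6:52313248-52313547, plus strand: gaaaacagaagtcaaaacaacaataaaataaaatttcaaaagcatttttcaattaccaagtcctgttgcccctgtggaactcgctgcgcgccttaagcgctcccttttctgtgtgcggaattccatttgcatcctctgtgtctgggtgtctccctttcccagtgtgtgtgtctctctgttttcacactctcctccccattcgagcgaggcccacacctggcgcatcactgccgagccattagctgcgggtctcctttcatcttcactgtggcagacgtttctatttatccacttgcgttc
Mesp1, chr7:79793541-79793840, minus strand: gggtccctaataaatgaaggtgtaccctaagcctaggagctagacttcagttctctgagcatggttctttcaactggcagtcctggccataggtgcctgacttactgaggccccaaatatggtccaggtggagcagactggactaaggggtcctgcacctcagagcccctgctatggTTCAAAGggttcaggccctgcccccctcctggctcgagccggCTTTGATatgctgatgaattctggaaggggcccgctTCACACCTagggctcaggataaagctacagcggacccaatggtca
Gsc, chr12:104473187-104473486, minus strand: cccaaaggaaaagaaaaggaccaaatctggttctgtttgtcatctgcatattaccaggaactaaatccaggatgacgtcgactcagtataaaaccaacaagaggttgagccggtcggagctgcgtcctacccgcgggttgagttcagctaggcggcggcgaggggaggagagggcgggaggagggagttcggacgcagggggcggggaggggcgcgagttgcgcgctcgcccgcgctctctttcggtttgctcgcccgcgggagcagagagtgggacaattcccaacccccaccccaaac
The table held 8 of the 10 promoters, without Mixl1 and Fgf8. A TCF/LEF word was found in 2 of the 8, T and Mesp1, and in 16.9% of all 32817 promoters. T held 1 match, at bases 16 to 22 of the window. Mesp1 held TCF/LEF matches at bases 178 to 184 and 220 to 226, and a T-box match at bases 256 to 263. The T-box word was in 1 of the 8 and in 1.27% of all promoters, and the SMAD word GGCGCC was in 0 of the 8 and in 11.9%. None of these matches overlapped, and a match is no more than a description of the letters.

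Fgf8, a secreted growth factor that streak cells need in order to migrate, was highest in the day 5 libraries. It stood at 3.59 CPM in Type I and 6.94 CPM in Type III blastoids, against 0.153 CPM from 4 counts in siNr1h2 and 0 counts in siNT day 2 blastoids. The stem cells held 0.346 CPM in T09-treated EPSC, 0.419 CPM in EPSC, 0.446 CPM in T09-treated ESC and 0.633 CPM in ESC. Type III and Type I stood apart at the top, and the other 6 libraries formed a low group whose neighbours were not separated.

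Kdr encodes a VEGF receptor of the blood and vessel progenitors that arise from posterior streak mesoderm. Its level was 1.62 CPM in Type I, 3.41 CPM in Type III, 1.79 CPM in siNr1h2 and 3.07 CPM in siNT blastoids. It was 0.198 CPM in T09-treated EPSC, 0.393 CPM in EPSC, 4.41 CPM in T09-treated ESC and 4.04 CPM in ESC. EPSC stood apart at the bottom and Type I and siNr1h2 lay next above, while ESC were not separated from Type III, or Type III from siNT. Flt1, the related VEGF receptor of endothelium and trophoblast, stood at 340 CPM in Type I and 198 CPM in Type III blastoids, against 0.296 CPM in T09-treated EPSC.

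Msx1 and Msx2, homeobox factors that respond to BMP, had the same order across the blastoids. Msx1 stood at 20.5 CPM in Type I, 15.0 CPM in Type III, 10.3 CPM in siNr1h2 and 11.8 CPM in siNT blastoids. Its stem cell levels were 0.124 CPM in T09-treated EPSC, 0.445 CPM in EPSC, 0.670 CPM in T09-treated ESC and 0.904 CPM in ESC. For both genes Type I lay above Type III, the reverse of T. Msx2 stood at 35.5 CPM in Type I, 24.5 CPM in Type III, 17.4 CPM in siNr1h2 and 18.1 CPM in siNT blastoids. In the stem cells Msx2 stood at 0.173 CPM in T09-treated EPSC, 0.550 CPM in EPSC, 8.18 CPM in T09-treated ESC and 5.70 CPM in ESC. Counting intervals did not separate the day 2 libraries for either gene, and they separated all 4 stem cell libraries for Msx2. For Msx1, the only neighbouring stem cell libraries they separated were EPSC and T09-treated EPSC.

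Blastoids were set against the EPSC libraries nearest to their source: the day 5 blastoids against T09-treated EPSC, and siNT day 2 blastoids against EPSC. For such pairs of single libraries, log2 ratios used a prior count of 2, and their 95% intervals are exact and conditional on the summed count. A gene was counted as different at a ratio of at least 2-fold with an interval that excluded equality and at least 20 counts in 1 library. In Type I blastoids 6 of the 9 members with enough counts were higher and 1 was lower, where 22.7% of all 14378 genes with enough counts were higher and 18.1% lower. In Type III blastoids 8 of 10 were higher and 1 lower, against 21.7% and 16.0% of all genes. In siNT blastoids 6 of 7 were higher and 1 lower, against 14.5% and 11.3%. All 6 higher members in Type I, 7 of 8 in Type III and 5 of 6 in siNT had under 20 counts in their EPSC library. They could enter only through the blastoid library, so these counts describe the genes and are no evidence about the set. Type I and Type III share 1 EPSC library.

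In Type I blastoids Msx2 stood at log2 7.30 (6.63 to 9.0) and Msx1 at 6.86 (6.14 to 9.0). T and Evx1 stood at 5.96 (5.40 to 7.03) and 5.75 (4.94 to 8.80) there, Fgf8 at 3.19 (2.58 to 4.29) and Kdr at 2.74 (1.96 to 4.31). In Type III blastoids T stood at log2 6.86 (6.32 to 7.95), Msx2 at 6.75 (6.09 to 8.46), Evx1 at 6.52 (5.75 to 9.59) and Msx1 at 6.40 (5.69 to 8.56). The intervals of these 4 genes overlapped in each day 5 library, and T09-treated EPSC held 3 to 14 counts of each, so their order is not fixed. Fgf8 stood at 4.13 (3.55 to 5.22), Kdr at 3.78 (3.08 to 5.35), Mesp1 at 3.56 (2.57 to 10.51) and Mixl1 at 1.66 (1.15 to 2.33). Mesp1 rests on 29 counts against 1, so its ratio is loosely fixed.

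Members short of the rule were few. Mixl1 in Type I blastoids, at log2 0.81 (0.22 to 1.5), and Tbx6 in both day 5 libraries, at 0.90 (0.17 to 1.79) in Type I and 0.94 (0.21 to 1.85) in Type III, stayed under 2-fold. Mesp1 in Type I blastoids, with 16 counts against 1, had too few counts. Gsc was the lower member each time, with a log2 ratio of -3.71 (-7.69 to -2.69) in Type I, -4.06 (-10.81 to -2.94) in Type III and -4.08 (-8.12 to -3.13) in siNT.

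On day 2, in siNT blastoids over EPSC, Evx1 stood at log2 7.97 (7.10 to 12.01) from 1027 counts against 2, and T at 5.61 (4.88 to 7.47), with intervals that overlapped. Msx2 stood at 4.91 (4.41 to 5.74), Msx1 at 4.57 (4.03 to 5.52), Kdr at 2.81 (2.19 to 3.85) and Mixl1 at 2.03 (1.31 to 3.18). Fgf8 had 0 counts in siNT blastoids against 16 in EPSC and was at least 5.50-fold lower, with too few counts for the rule. The siNr1h2 library was not set against EPSC.

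**Figure D2:**
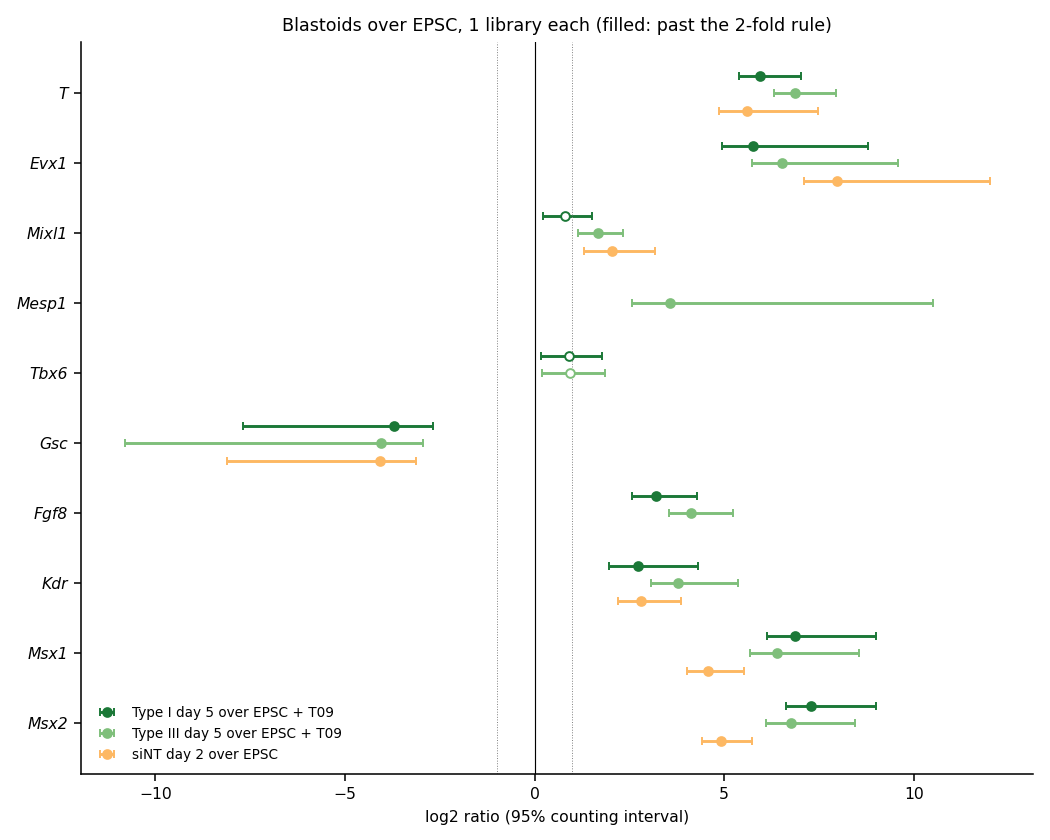
Log2 ratio of each gene with at least 20 counts in 1 library of the pair, in Type I and Type III day 5 blastoids over T09-treated EPSC and in siNT day 2 blastoids over EPSC, with 95% counting intervals. Filled points passed the 2-fold rule. Gsc lies left of equality in all 3 comparisons, at -3.71, -4.06 and -4.08, and T, Evx1, Msx1 and Msx2 lie far to the right.

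Markers of other lineages moved in the same pairs. All 10 primitive endoderm markers were higher in Type I, Type III and siNT blastoids. Their sum was 21092 and 12133 CPM on day 5 against 342 CPM in T09-treated EPSC, and 3795 CPM in siNT blastoids against 598 CPM in EPSC. Col4a1 alone held 15510 and 7700 CPM of the day 5 sums. Of the trophectoderm markers, 7 of 9 were higher in each comparison, and 1, 1 and 0 were lower. The list summed to 1394 and 1566 CPM against 121 CPM, and to 271 CPM against 97.6 CPM. The keratin genes Krt8 and Krt18 held 754 and 648 CPM of the Type III sum. Tfap2c stood at 19.5 CPM in Type I blastoids against 104 CPM in T09-treated EPSC. Pluripotency markers were lower for 5 of 5, 5 of 5 and 3 of 5. Of the 8 endothelium and blood markers, 7, 7 and 5 were higher and 1, 1 and 0 lower. Their sum was 410 and 277 CPM against 132 CPM, and 139 CPM against 155 CPM. Flt1 alone held 340 and 198 CPM of the day 5 sums. Pecam1 stood lower in every blastoid library than in every stem cell library. Fibroblast markers gave 2 higher of 4 each time, with 1, 1 and 2 lower. Eomes, Hand1, Gata6, Foxa2, Sox17 and others belong both to these lineages and to gastrulation. The part of these lineages in the members' levels was not tested.

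Type I and Type III blastoids were compared directly. Only Kdr passed the rule, lower in Type I at log2 -1.05 (-1.56 to -0.61), so 0 members were higher and 1 of 9 was lower, where 1.93% of all genes were higher and 5.75% lower. At any fold, 6 of the 9 were lower and 2 higher by their counting intervals, where 34.2% of all genes were higher and 31.9% lower. The lower genes were those of streak and early mesoderm, and the higher pair was Msx1 and Msx2. T stood at log2 -0.91 (-1.03 to -0.79), Fgf8 at -0.94 (-1.27 to -0.63), Mesp1 at -0.90 (-1.96 to -0.06), Mixl1 at -0.85 (-1.38 to -0.38) and Evx1 at -0.79 (-1.03 to -0.56). Msx1 stood at 0.44 (0.28 to 0.61) and Msx2 at 0.54 (0.41 to 0.67), while Tbx6, at -0.05 (-0.75 to 0.65), was not separated, and Gsc had 2 counts against 1. In the same pair all 5 pluripotency markers were lower in Type I blastoids, summing to 295 CPM against 664 CPM in Type III. Their part in the lower streak genes was not tested.

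In siNr1h2 over siNT day 2 blastoids, 0 of the 6 members with enough counts passed the 2-fold rule in either direction, where 1.49% of all genes were higher and 2.17% lower. Of these 6, Kdr and Mixl1 were lower by their counting intervals, at log2 -0.76 (-1.30 to -0.28) and -0.97 (-1.83 to -0.27), where 20.8% of all genes were lower and 17.1% higher. The members with the most counts differed little: T stood at 0.13 (-0.09 to 0.35), Evx1 at 0.10 (-0.04 to 0.24), Msx2 at -0.05 (-0.23 to 0.12) and Msx1 at -0.19 (-0.41 to 0.03). For T, Evx1, Msx1 and Msx2 the intervals thus left out changes of 2-fold in these libraries. Nr1h2 itself stood at 37.7 CPM in siNr1h2 against 53.9 CPM in siNT, so the comparison is with a partial fall of the target RNA. The other 4 had few counts in siNr1h2 against siNT: 12 against 2 for Mesp1, 13 against 19 for Tbx6, 4 against 0 for Fgf8 and 3 against 2 for Gsc. The ratio of Mesp1, log2 2.21 (1.00 to 6.37), had an interval that excluded equality but too few counts for the rule. No list of markers had a member past the rule in this pair.

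**Figure D3:**
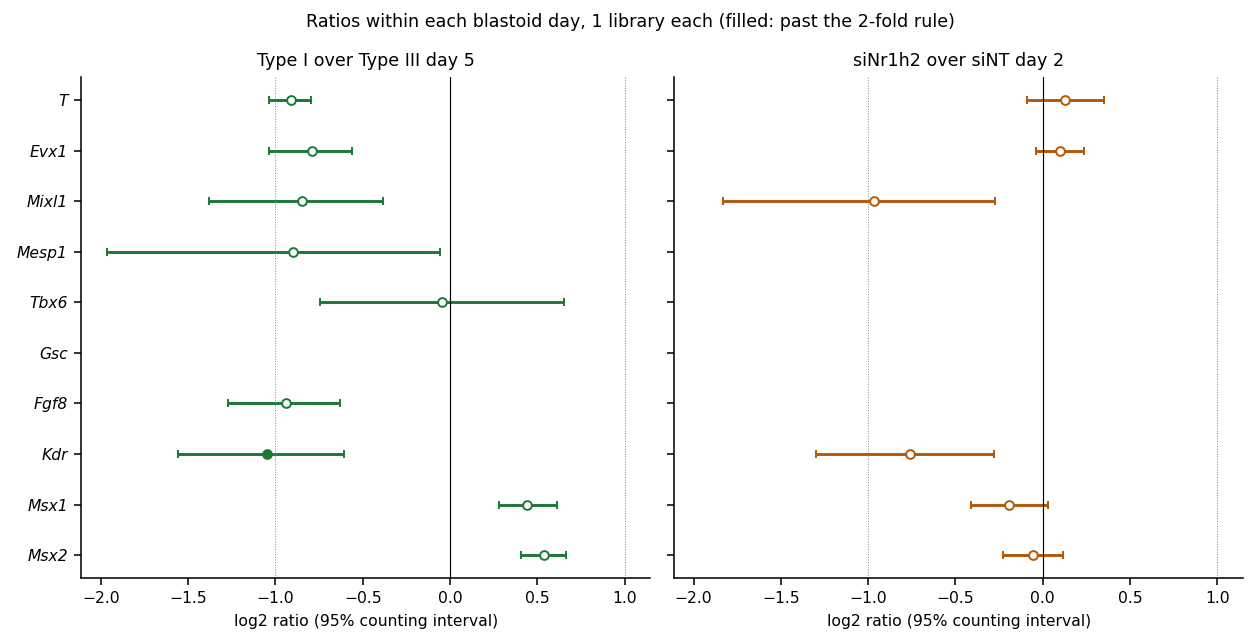
Log2 ratio of each gene with at least 20 counts in 1 library, between the 2 libraries of a blastoid day, Type I over Type III on day 5 and siNr1h2 over siNT on day 2, with 95% counting intervals. Kdr in Type I over Type III, at -1.05, is the filled point, while T, Evx1, Msx1 and Msx2 lie close to equality between the siRNA libraries.

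EPSC were compared with ESC by edgeR's quasi-likelihood test, with state and T09 treatment as terms over the 4 stem cell libraries, with 1 residual degree of freedom and Benjamini-Hochberg adjustment over 14477 genes. Msx2, Kdr, T and Gsc fell in EPSC. Of the 8 members tested, 0 were higher and 4 lower, where 14.3% of all genes were higher and 14.5% lower. The median change was -1.43 over these 8, and 0.00 over all genes tested. The filter asked for 0.267 CPM, which T, Kdr, Msx1 and Msx2 reached in both ESC libraries but in 1 EPSC library, so the count and median describe the genes and are no evidence about the set. Mixl1, Gsc, Fgf8 and Tbx6 reached it in all 4 libraries, and Mesp1 and Evx1 were left out.

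Msx2 fell by 4.29 on the log2 scale (approximate SE 0.464, edgeR adjusted p = 0.000159), the largest change among the 8. Kdr fell by 3.86 (approximate SE 0.418, edgeR adjusted p = 0.000161). For both, the EPSC libraries lay below the ESC libraries with a wide gap. T fell by 2.21 (approximate SE 0.616, edgeR adjusted p = 0.0244), with 14 and 6 counts in EPSC with and without T09 against 36 and 43 in ESC. Gsc fell by 1.25 (approximate SE 0.306, edgeR adjusted p = 0.0137). The calls of T and Gsc did not hold in every alternative. The edgeR adjusted p of T was 0.107 without the EPSC library and 0.104 without the ESC library, and that of Gsc was 0.0876 without the T09-treated EPSC library, and DESeq2 gave an adjusted p of 0.0921 for T and 0.0656 for Gsc. Msx1, at -1.60 (approximate SE 0.642, edgeR adjusted p = 0.0928), did not pass, nor did Fgf8 at -0.49, Mixl1 at -0.35 and Tbx6 at -0.31, with edgeR adjusted p between 0.580 and 0.730. The value of Msx1 was -2.64 without the EPSC library and -0.83 without the T09-treated EPSC library.

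Taken pair by pair, 5 of 7 members were lower and 0 higher both without T09, where 9.58% of all genes were higher and 8.05% lower, and with T09, where 8.35% were higher and 9.79% lower. T, Gsc, Kdr and Msx2 were lower in both pairs. The fifth was Mixl1 without T09, at log2 -1.28 (-2.47 to -0.43), and Msx1 with T09, at -2.04 (-4.19 to -1.02). With T09 the ratio of Mixl1 pointed the other way, at 0.59 (-0.20 to 1.5). Of the 5 lower genes, 3 without T09 and 4 with T09 had under 20 counts in EPSC. Pluripotency markers summed to 3851 and 3503 CPM in EPSC with and without T09, against 4776 and 5087 CPM in ESC, and primitive endoderm markers to 342 and 598 CPM against 105 and 150 CPM. Their part in these differences was not tested.

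**Figure D4:**
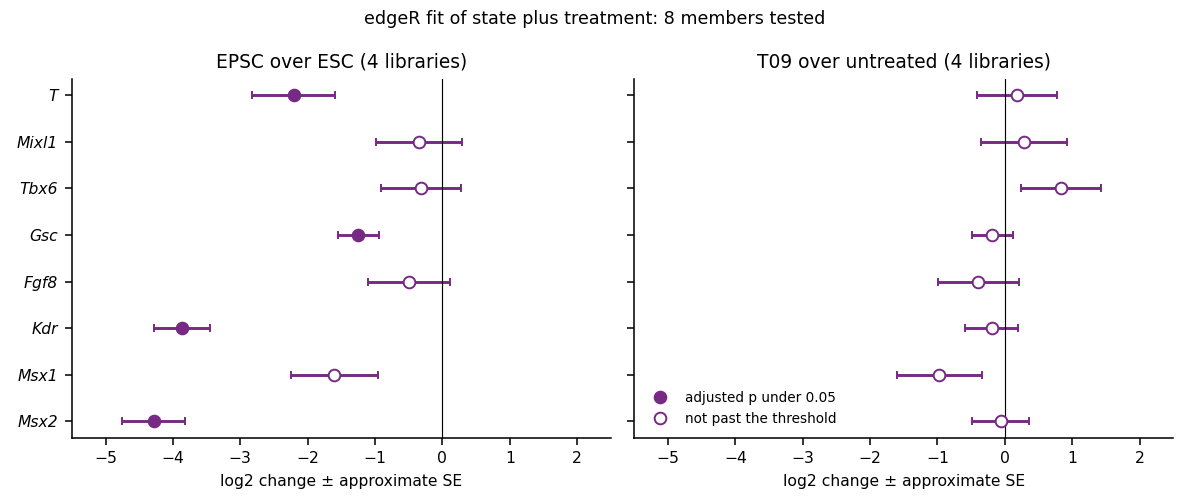
Log2 change of the 8 tested genes in EPSC over ESC and in T09-treated over untreated stem cells, from the edgeR fit over 4 libraries, with approximate SE. Filled points had an adjusted p under 0.05: Msx2 at -4.29, Kdr at -3.86, T at -2.21 and Gsc at -1.25 for state, and none for T09.

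T09 moved no member past the test in the stem cells. In the fit 0 of 8 passed, where 0.0898% of all genes were higher and 0.0138% lower, and 0 of the 8 had an unadjusted p under 0.05, as against 879 of all genes. Limma-voom called 0 of the same 8, and DESeq2 called 0 of the 4 members to which it gave an adjusted p. The log2 changes ran from -0.97 for Msx1 to 0.83 for Tbx6, with an edgeR adjusted p of 0.888 and 0.893. The pairs gave scattered values. In EPSC, Mixl1 was higher and Msx2 lower among 4 members with enough counts, where 0.895% of all genes were higher and 3.29% lower. Mixl1 had 35 counts in T09-treated EPSC against 13 in EPSC, log2 1.23 (0.39 to 2.39), and Msx2 had 7 counts against 21, log2 -1.42 (-3.15 to -0.38). Msx1, with 5 counts against 17, stood at log2 -1.51 (-3.64 to -0.35). Its interval excluded equality, but it had too few counts for the rule. In ESC, Tbx6 was higher and 0 members lower among 8, where 1.39% of all genes were higher and 2.53% lower. Tbx6 had 32 counts in T09-treated ESC against 12 in ESC, log2 1.18 (0.31 to 2.40). No member was called in both states.

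Other genes of these programmes were read from lists by role, and each list's count stands beside the share of all genes called: in the fit of EPSC over ESC 14.3% were higher and 14.5% lower, in Type I blastoids 22.7% and 18.1%, in Type III 21.7% and 16.0% and in siNT 14.5% and 11.3%. As with the members, a list gene could pass through 1 library alone, so the counts are descriptions. Direct Wnt feedback targets, which report Wnt pathway output, were lower in EPSC than in ESC for 8 of the 12 tested and higher for 0, with a median log2 change of -1.36. Cdx1, a caudal homeobox factor, fell by 7.39 (approximate SE 0.191, edgeR adjusted p = 1.52e-07), to 0.741 and 0.445 CPM in EPSC with and without T09, against 111 and 87.6 CPM in ESC. Axin2, a scaffold that restrains the pathway, fell by 3.39 (approximate SE 0.152, edgeR adjusted p = 1.17e-06). In blastoids, 8 of 13 of these targets were higher and 2 lower in Type I, 9 and 2 in Type III, and 10 and 1 in siNT. Axin2 stood at 50.3 CPM in Type I and 45.6 CPM in Type III blastoids against 4.47 CPM in T09-treated EPSC, and at 95.8 CPM in siNT blastoids against 3.85 CPM in EPSC. The median log2 ratios were 3.48, 3.33 and 2.83, beside -0.03, 0.00 and -0.04 for all genes. Members differed among themselves. Cdx1 stood at 1.28 CPM in Type I and 2.71 CPM in Type III blastoids against 0.741 CPM in T09-treated EPSC, and at 19.5 CPM in siNT blastoids against 0.445 CPM in EPSC. Notum, a secreted Wnt inhibitor, was lower in all 3 comparisons, and the cyclin gene Ccnd1 was lower in both day 5 libraries.

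BMP feedback targets were higher for 6 of 10 and lower for 1 in Type I blastoids, for 7 and 0 of 10 in Type III and for 6 and 0 of 9 in siNT, where 22.7%, 21.7% and 14.5% of all genes were higher. Id1, an inhibitor of bHLH factors, stood at 142 CPM in Type I and 145 CPM in Type III blastoids against 20.8 CPM in T09-treated EPSC, and at 306 CPM in siNT blastoids against 9.69 CPM in EPSC. EPSC over ESC gave 2 higher and 3 lower of 10: Id2 rose by 1.16 and Id1 by 0.67, while Id3 fell by 1.52 and Smad7 by 1.17. Nodal and activin feedback targets gave 1 higher and 6 lower of 8 in Type I blastoids, 2 and 4 in Type III and 1 and 4 in siNT, where 18.1%, 16.0% and 11.3% of all genes were lower. Lefty2, a secreted Nodal antagonist, stood at 0.502 CPM in Type I and 4.44 CPM in Type III blastoids against 63.4 CPM in T09-treated EPSC, and at 3.43 CPM in siNT blastoids against 109 CPM in EPSC. Lefty2 and Gsc were thus both low in all blastoid libraries. In EPSC over ESC, 2 of 8 were higher and 3 lower, Lefty1 rising by 2.28 and Foxh1 by 0.39, and Lefty2 falling, with a log2 change of -1.37.

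FGF and ERK feedback targets gave 4 higher and 2 lower of 11 in EPSC over ESC, with Dusp6, an ERK phosphatase, up by 2.54 and Spry4 by 1.92, and Spry2 and Etv5 at -0.54 and -0.43. In blastoids they gave 3 higher and 5 lower of 12 in Type I, 3 and 3 in Type III and 7 and 2 in siNT, so that the higher share on day 5 was near the 22.7% and 21.7% of all genes. Other primitive streak and mesendoderm genes were split. In EPSC over ESC 6 rose and 5 fell of 14, Otx2 rising by 2.53 and Gata6 by 3.90, whereas Eomes, the T-box factor that acts with Nodal in the streak, changed by -2.45 and the activin antagonist Fst by -1.90. In Type I blastoids 10 of 17 were higher and 6 lower, in Type III 10 and 4, and in siNT 12 and 2.

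Presomitic, caudal and tailbud genes gave 2 higher and 7 lower of 14 in EPSC over ESC. Tcf15 rose by 1.64 and Dll1 by 4.69. Nkx1-2, a homeobox factor of caudal progenitors, had 0 counts in both EPSC libraries against 15.2 CPM in T09-treated ESC and 11.8 CPM in ESC, at least 205-fold lower with T09 and at least 150-fold lower without. The list gave 8 higher and 3 lower of 16 in Type I, 9 and 2 of 16 in Type III and 11 and 1 of 14 in siNT. Lateral, cardiac and blood-forming mesoderm genes gave 2 higher and 5 lower of 16 in EPSC over ESC, Pdgfra rising by 2.03 and Bmp4 by 0.72, with Tbx20 at -1.86 and Tbx3 at -0.46. They gave 13 higher and 2 lower of 17 in Type I, 15 and 2 of 19 in Type III and 13 and 0 of 19 in siNT. Genes of the epithelial to mesenchymal transition gave 3 higher and 4 lower of 12 in EPSC over ESC: Zeb2, a repressor of E-cadherin, rose by 3.06 and Epcam by 0.87, while the cadherin genes Cdh1 and Cdh2 stood at -0.77 and -1.85. Blastoids gave 5 higher and 2 lower of 12 in Type I, 5 and 3 in Type III and 5 and 4 in siNT. The list pools epithelial and mesenchymal genes, so its counts give no direction of such a transition. Each gene said to rise or fall here had an edgeR adjusted p of at most 0.0449.

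**Figure D5:**
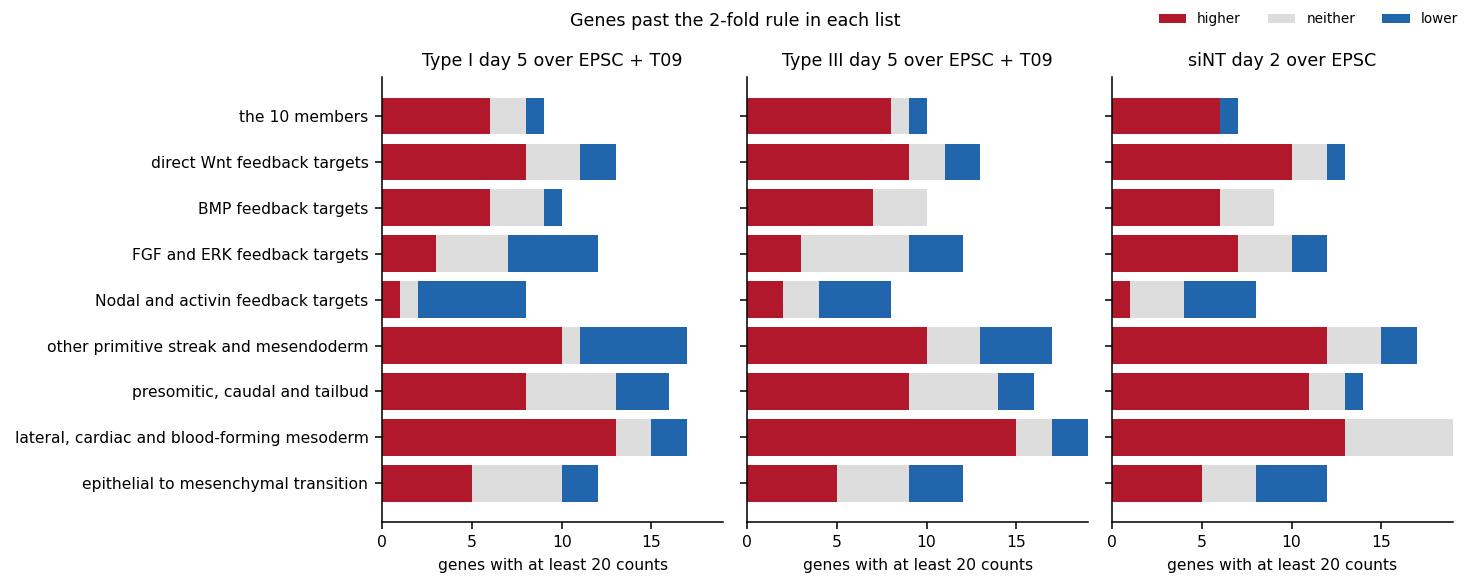
Number of genes per list that were higher, lower or neither under the 2-fold rule in Type I and Type III blastoids over T09-treated EPSC and in siNT blastoids over EPSC, among genes with at least 20 counts in 1 library. Wnt targets gave 8, 9 and 10 higher of 13, and Nodal targets gave 6, 4 and 4 lower of 8.

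The T09 fit called 1 gene of these 8 lists, Bmp4, which encodes a BMP ligand and rose by 0.97 (edgeR adjusted p = 0.0386). Of all genes in that fit, 0.0898% were higher and 0.0138% lower. In siNr1h2 over siNT, 1 of 8 Nodal targets was lower and no other list gene passed the 2-fold rule. Of all genes in that pair, 1.49% were higher and 2.17% lower. In Type I over Type III blastoids, none of the 8 lists had a higher gene. Between 0 and 4 genes were lower of the 8 to 19 per list with enough counts, where 1.93% of all genes were higher and 5.75% lower. Among markers, EPSC over ESC gave 0 higher and 3 lower of 5 for pluripotency (Nanog -1.09, Esrrb -0.50), and 2 and 5 of 7 for trophectoderm (Gata3 1.47, Gata2 -2.75). It gave 7 and 0 of 9 for primitive endoderm (Col4a1 2.53), 0 and 1 of 7 for endothelium and blood (Etv2 -2.51) and 1 and 1 of 4 for fibroblasts (Acta2 5.30, Col1a1 -1.14).

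Genes with the most similar course were ranked by Pearson correlation of log2(CPM + 0.5) over the 8 libraries, which share the ESC and EPSC against blastoid contrast. For T they were Gabre (r = 0.994), Ubl4a (0.991) and Ccng1 (0.989), and 318 of 13139 genes reached 0.95. For Evx1 they were Zfp36l3, Pm20d2 and Vrtn (0.994 each), and for Gsc Vps54 (0.996) and Spsb1 (0.993). Likeness of this kind was common for T, Msx1, Gsc and Evx1, so it singles out no gene. Msx1 ran closest to Dkk1, a secreted Wnt antagonist (0.996), Bin1 (0.996) and Kcnk1 (0.995), and Msx2 to Stx3 (0.994), Jcad (0.994) and Pfkfb2 (0.990). Fgf8 ran closest to Pcdhgb2 (0.990), Tmem67 (0.986) and Etfdh (0.982), and Kdr to Slc30a3 (0.982), Pkm (0.976) and Nmt2 (0.968). Mixl1, Mesp1 and Tbx6, which have few counts, had 1, 4 and 7 genes at 0.95 or above. They were led by Timmdc1 (0.955), Zfp938 (0.940) and Hsd17b2 (0.935) for Mixl1, by Pdgfb (0.962), Tmem86a (0.957) and Btbd1 (0.955) for Mesp1, and by Lss (0.980), Aacs (0.978) and Dennd1c (0.964) for Tbx6. Among the members, the closest pair was T and Msx1 (r = 0.967), and T and Gsc had r = -0.854.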

How the data were processed

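The authors deposited a table of raw counts of reads per gene symbol for 24888 genes in 8 libraries, of which 5090 genes had no count. Per the submitters' processing notes, STAR, HTSeq, Cuffnorm and the mouse build mm9 were used, and versions, roles and strand setting are not given in the sources used here. Total RNA was made into libraries with a directional kit, per the labels' protocols.

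Counts were scaled by TMM factors in edgeR 4.0.16 (R 4.3.3). The fit of state plus treatment used filterByExpr, the quasi-likelihood test and Benjamini-Hochberg adjustment at 0.05 over all genes kept, and an approximate SE is the log2 change over the square root of F. The other comparisons had 1 library per group and no test, so they used log2 ratios with exact conditional Clopper-Pearson intervals at 95%. DESeq2 1.42.0 and limma 3.58.1 were alternatives, beside other size factors, filters, count minimums, folds and prior counts and leaving out each library. Both procedures were tested on simulated data. With a biological coefficient of variation of 0.1, against 0.129 estimated here, the fit recovered 89% of 2-fold and 100% of 4-fold changes. The pair rule recovered 100% of 4-fold changes, with 35 false calls in 13611 genes, under counting error alone. Changed genes were drawn from those with more counts, so neither test covers members with few counts or the spread between cultures. With state and treatment both in the fit, the residual is the difference in T09 response between states, shared in part across genes. A differing response, such as that described for Msx2, therefore counts as spread in these p-values. Nothing in the labels says that the 4 libraries were separate cultures of a group.

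All 10 members, the lists and the rules were chosen with earlier results of these data known. Up to 4 genes per list were named, those with the smallest p in each direction, or else the largest change, in EPSC over ESC, and 3 genes per member by correlation, of which 1 for Gsc is not reported here. Flt1, Pecam1, Axin2, Id1, Lefty2, Krt8, Krt18, Tfap2c and Col4a1 in blastoids and Evx1os were described after their values were seen. Exon lengths came from GENCODE M21 and promoters from RefSeq, both on a later build than the counts.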

Additional observations from a re-analysis of the deposited data

Results flagged for a closer look

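Msx2 moved in opposite directions with T09 in the 2 stem cell states. It had 7 counts in T09-treated EPSC against 21 in EPSC, log2 -1.42 (-3.15 to -0.38), and 293 counts in T09-treated ESC against 189 in ESC, log2 0.52 (0.25 to 0.79). The response in EPSC minus that in ESC was -1.94 on the log2 scale. With 1 library per group this difference was not tested, and the EPSC value rests on few counts.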

How the results depend on the processing

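Of 76 recomputed counts of members past a threshold, 62 stayed within 1.5 times the reported count. Of 460 recomputed values of single members, 431 were counted as the same. A fit value was so counted if it kept its direction and its side of the threshold. A pair ratio was so counted if it stayed inside its reported counting interval. For EPSC over ESC in the fit, where 4 members passed, DESeq2 called 2, with an adjusted p of 0.0921 for T and 0.0656 for Gsc, and leaving out 1 library gave 3 to 4. These fits without 1 library held state alone, since the full model would have no residual degree of freedom, so the treatment fit was not run that way. The sign turned for Mixl1, to 0.24 without the EPSC library and 0.10 without the ESC library, for Tbx6, to 0.40 without the T09-treated ESC library, and for the T09 change of Msx2, to 0.29 with limma-voom, none of them past the threshold in any fit. A minimum of 100 counts gave 0 members for T09-treated over untreated EPSC (2 as reported), 0 for ESC (1 as reported), and 3 for EPSC over ESC with and without T09 (5 as reported for each). A 4-fold threshold gave the same 4 numbers, and 0 for Type I over Type III blastoids (1 as reported). A biological variation of 0.2 gave 0 for T09 in ESC. With a 1.5-fold threshold, 6 members differed between Type I and Type III blastoids and 2, Mixl1 and Kdr, between siNr1h2 and siNT (0 as reported), and with no count minimum 1, Mesp1, did in that pair. The cause of each shift was not tested, except that a higher minimum removes members and a higher threshold asks for more. No paired analysis was possible because each group had 1 library and the labels give no replicate numbers. Depth limits Mesp1, Tbx6, Mixl1 and Gsc in blastoids, with 1 to 94 counts there, and Fgf8 on day 2, with 4 counts in siNr1h2 and 0 in siNT.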
